A study of Mus musculus with 8 samples.

Results

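The Obox genes are a family of oocyte-specific homeobox genes of the mouse. Of these, Obox1, Obox2, Obox3, Obox5 and Obox7, called the 5 members below, were followed through 8 oocyte libraries. Obox6 and Obox8 are protein-coding too but are not among the members, and sums of the family are over the 5 members. The members were taken by name, not by a measured value, from the 54838 genes of the count table. Earlier results of these data were known when they were chosen. Each library held RNA from 5 to 10 oocytes of C57BL/6 mice, with 2 libraries in each of 4 groups. Control oocytes (genotype given as wildtype) and BAF250aGKO oocytes, called knockout below, were collected at the germinal vesicle (GV) stage, when the oocyte is fully or nearly grown and arrested in meiotic prophase, and at MII, the metaphase of the second meiotic division at which the egg waits for sperm. In the knockout the gene of BAF250a, Arid1a, a subunit of the BAF chromatin remodelling complex, was deleted with a Gdf9-driven Cre recombinase that acts in oocytes from early follicles on. The sources used here give neither the age of the mice nor whether the controls carried floxed alleles. Nothing in the labels says that the libraries of a group came from separate animals, so a p-value here speaks only for the spread among these libraries.

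Homeobox genes encode transcription factors that bind DNA through a homeodomain. The Obox genes lie in 1 cluster that grew by repeated duplication, and their transcripts are among those that a growing oocyte makes and stores for the time after fertilisation, when the embryo's own genome is switched on. Obox1, Obox2, Obox5 and Obox7 are known as maternal transcripts of this kind, whereas Obox3 is known chiefly from the early embryo. OBOX proteins are known to act in that switch, zygotic genome activation.

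On mm10 the cluster spanned 1508 kb of chromosome 7, from 14331436 to 15839678. The 5 members are protein-coding genes there. Obox7 (ENSMUSG00000055942) lies at 14659496 to 14665996 on the plus strand and Obox2 (ENSMUSG00000074369) at 15388721 to 15398545, plus strand. Obox1 (ENSMUSG00000054310) is annotated from 15388948 to 15556866 on the plus strand, so that its longest model starts inside Obox2. Obox3 (ENSMUSG00000066772) lies on the minus strand between 15479825 and 15639902, and Obox5 (ENSMUSG00000074366) at 15750131 to 15759800, plus strand. The exons of Obox1 and Obox2 overlap by 59 bases, and those of the other members overlap no other gene.

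The members are close copies of each other, which matters for how their reads could be assigned. The coding exon below, the third of each gene model and the second of Obox3, shows how close. It is written 5′ to 3′ in the sense of the gene, and capitals mark the bases that differ from Obox1.
Obox1: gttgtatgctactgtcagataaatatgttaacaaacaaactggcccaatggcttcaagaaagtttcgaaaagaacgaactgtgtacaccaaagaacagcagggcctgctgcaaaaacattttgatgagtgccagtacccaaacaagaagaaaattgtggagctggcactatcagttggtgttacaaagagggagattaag
Obox2: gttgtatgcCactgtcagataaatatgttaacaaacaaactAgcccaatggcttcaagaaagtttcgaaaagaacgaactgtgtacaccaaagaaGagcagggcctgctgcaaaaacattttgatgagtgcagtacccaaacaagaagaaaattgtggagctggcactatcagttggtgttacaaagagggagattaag
Obox3: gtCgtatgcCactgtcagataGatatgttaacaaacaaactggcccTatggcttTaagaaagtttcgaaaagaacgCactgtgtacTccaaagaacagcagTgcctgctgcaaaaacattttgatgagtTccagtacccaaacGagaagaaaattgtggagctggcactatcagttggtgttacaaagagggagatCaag
Obox5: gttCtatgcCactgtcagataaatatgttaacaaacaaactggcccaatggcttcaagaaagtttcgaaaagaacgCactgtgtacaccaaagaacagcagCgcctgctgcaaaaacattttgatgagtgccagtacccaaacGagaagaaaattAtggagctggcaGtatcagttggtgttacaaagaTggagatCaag
Obox7: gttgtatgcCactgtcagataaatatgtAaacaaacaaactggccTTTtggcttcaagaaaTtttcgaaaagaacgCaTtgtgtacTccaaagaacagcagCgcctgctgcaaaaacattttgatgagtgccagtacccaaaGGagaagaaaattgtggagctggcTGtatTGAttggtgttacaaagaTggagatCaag
These exons lie on chromosome 7 of mm10 at 15555505 to 15555704 in Obox1, 15397188 to 15397386 in Obox2, 15626796 to 15626995 in Obox3 (minus strand), 15757879 to 15758078 in Obox5 and 14664380 to 14664579 in Obox7. Against Obox1, Obox2 differed in 4 of the aligned columns, 1 of which is a base that Obox2 lacks. Obox5 differed in 9 columns, Obox3 in 11 and Obox7 in 19. The whole coding sequence is 612 bases long in Obox1 and 453 in Obox2, 873 in Obox5, 654 in Obox7 and 1005 in Obox3. Over the columns aligned without a gap, it was identical to that of Obox1 at 98.7% in Obox2, 95.6% in Obox5, 94.0% in Obox3 and 93.8% in Obox7.

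Read in windows of 50 bases, 57.4% of the windows in the Obox1 transcript models and 65.1% of those of Obox2 also occurred in another gene model. Nearly all of these were shared between the pair, 1033 windows in all. Obox5 shared 18.1% of its windows and Obox7 21.1%, mostly with each other. Obox3 shared 20.2%, mostly with annotated Obox3 pseudogenes, of which Obox3-ps3 held 14.5% of the Obox3 windows. With windows of 100 bases the shares were 42.3% for Obox1 and 47.2% for Obox2, and 8.89% or less for the other members. Reads from shared stretches can be set aside as not unique or placed on the wrong copy, and the share of reads that were set aside as aligning to several places was 7.82% to 13.0% of a library. How many of them came from Obox genes cannot be read from the table, so values of single members, those of Obox1 and Obox2 above all, are uncertain in a way that replicate spread does not show.

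**Figure D1:**
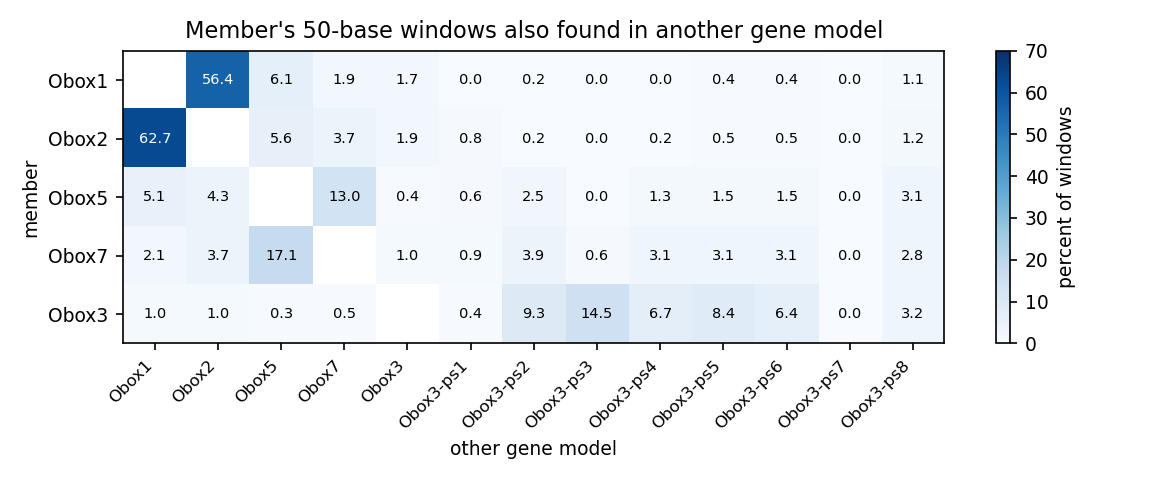
Percent of each member's 50-base windows (rows) that also occur in the gene model named on the horizontal axis, from GENCODE M21 transcripts. Obox1 and Obox2 share 56.4% and 62.7% of their windows with each other, Obox5 and Obox7 share 13.0% and 17.1%, and Obox3 shares most with Obox3-ps3.

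Depth was 19587421 to 33289150 reads in genes per library, and 3 reads corresponded to 0.0901 to 0.153 CPM (reads scaled to a common library size). At GV the targeted gene, Arid1a, had 8178 and 10928 reads (control) against 86 and 312 (knockout), and at MII 42047 and 39148 against 1109 and 576. All 12 oocyte markers, such as Zp3 and Gdf9, had reads in every library, and they summed to 47692 to 57227 CPM at GV and 20781 to 24712 CPM at MII. Of 16 granulosa and cumulus cell markers, the summed level at GV was 157 and 128 CPM (control) against 66.0 and 85.4 CPM (knockout), and at MII 151 and 141 CPM against 116 and 102 CPM, with 2 to 10 of the 16 at 0 reads in a library. The 14 blood and immune markers summed to 16.03 and 62.9 CPM in control MII, with Cd74 at 1095 reads in control MII library b and at 0 in library a, and to 1.28 to 4.89 CPM in the other libraries; Ptprc, Lyz2 and Hbb-bt were at 0 reads in all 8. Group values are means ± SD of 2 libraries, and a single gene's CPM refers to the reads of all tested genes after TMM scaling (trimmed mean of M values).

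Obox1, Obox2, Obox5 and Obox7 were abundant in all 8 libraries, while Obox3 was at or near 0. Together the 5 members held 3261942 reads over all libraries, and the 50 other loci annotated as Obox held 192. As a share of all gene reads, the members took 1.66% and 0.740% of the control GV libraries, and 2.36% and 1.33% of the knockout ones. At MII the shares were 1.55% and 1.58% (control) and 1.47% and 1.98% (knockout). Ranked by CPM per kilobase of exon among 15569 genes, Obox1 stood between rank 8 and 34 depending on the library, Obox2 between 9 and 21, Obox5 between 12 and 35 and Obox7 between 63 and 206.

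Obox2 had the highest level per kilobase in control oocytes, and Obox7 the lowest of the abundant members. In control GV oocytes the levels per kilobase of exon were 2272 ± 1470 CPM for Obox2, 1709 ± 1114 for Obox1, 1661 ± 1073 for Obox5 and 360 ± 189 for Obox7. The gaps between Obox2, Obox1 and Obox5 there were smaller than the spread between the libraries, but the order was the same within both: 3312, 2497 and 2419 CPM per kilobase in library 1 and 1233, 921 and 902 in library 2. In control MII oocytes the levels per kilobase were 3510 ± 21.0 CPM for Obox2, 2285 ± 0.156 for Obox1, 2161 ± 53.7 for Obox5 and 490 ± 80.5 for Obox7, each gap larger than the spread of the genes beside it. In knockout GV oocytes they were 3824 ± 2068 for Obox1, 3462 ± 2438 for Obox2, 3337 ± 1896 for Obox5 and 784 ± 491 for Obox7. Knockout MII oocytes had 3893 ± 1057 for Obox2, 2758 ± 858 for Obox5, 2579 ± 591 for Obox1 and 550 ± 144 for Obox7. Obox7 was the lowest of the 4 in each of the 8 libraries, and Obox2 the highest in all but the knockout GV libraries, where Obox1 was. This order depends on the length used: per window found in no other gene model, a measure chosen after seeing the data, Obox2 was the highest in 7 libraries and Obox1 in knockout GV library 2, and in all 8 libraries Obox5 then stood below Obox1 and Obox2 and above Obox7. That measure divides all reads of a member by its unique windows alone, 780 of 1832 in Obox1, 574 of 1647 in Obox2 and 1770 of 2160 in Obox5. It therefore raises Obox1 and Obox2 most, also if reads from shared windows were counted. Whether those reads were counted is not known, so this second order is no evidence on transcript levels.

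At GV, Obox3 had 5 and 4 reads in the control libraries and 11 and 0 in the knockout libraries. It had 0 reads in all 4 MII libraries, which allows up to 0.0901 to 0.115 CPM there. It was too low to be tested, although 79.8% of its 50-base windows occur in no other gene model. Among the other Obox loci, 41 of 50 had no read, including all 39 loci named as Obox4 pseudogenes, 1 of which is annotated as a lincRNA. Obox3-ps8, a processed pseudogene on chromosome 17, had the most, 57 reads, with 14 and 0 in the control GV libraries, 30 and 7 in the knockout ones, and 0 to 4 in each MII library. It was tested and passed in no contrast. Obox3-ps1 had 45 reads, 37 of them in knockout MII library 2, and Obox8 had 30, with 12 in control MII library b and 16 and 2 in knockout MII. Obox3-ps6, Obox3-ps5 and Obox3-ps4 had 23, 16 and 10 reads. Obox6, a protein-coding gene at the end of the cluster, had 5 reads, all in knockout GV. The other genes of the interval also had few reads: of 31 genes that are not Obox loci, 25 had 0 reads, and all 31 together had 197. Sequence shared among loci outside the members was not examined. Reads set aside as not unique leave no count, so 0 reads need not mean that a locus made no transcript.

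**Figure D2:**
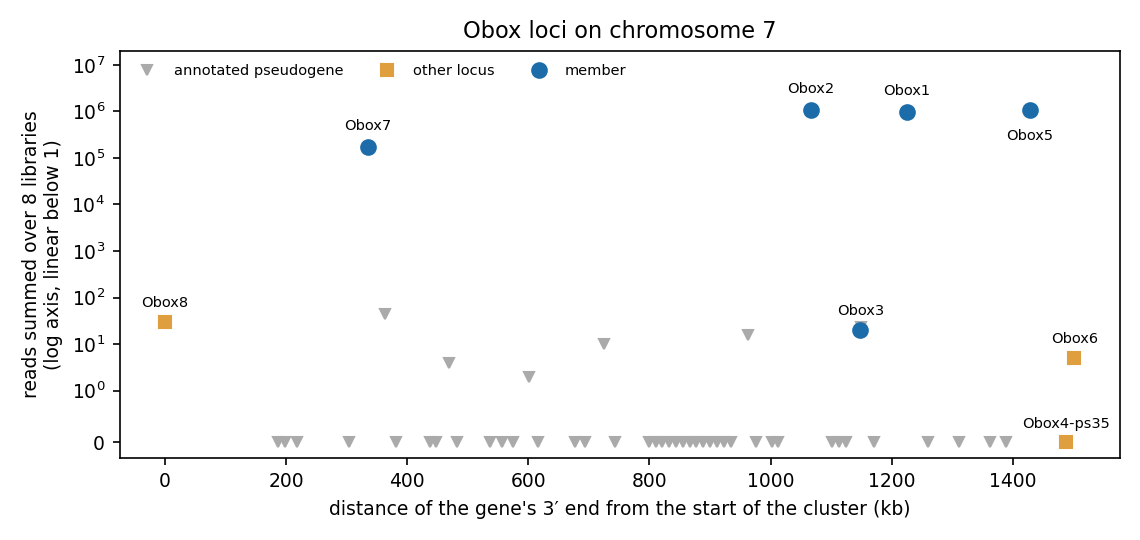
Reads summed over the 8 libraries (vertical, logarithmic, linear below 1) for each annotated Obox locus on chromosome 7, against the distance of its 3′ end from the cluster's start in kb. Obox1, Obox2, Obox5 and Obox7 stand far above every other locus, and Obox3, Obox6 and Obox8 have 20, 5 and 30 reads.

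The first question was whether loss of BAF250a altered these transcripts in GV oocytes. The means were higher in knockout for all 4 abundant members, but the libraries of each group lay far apart and no member passed the test. The control libraries had 4744 and 1751 CPM of Obox1, the knockout libraries 10043 and 4487. For Obox5 the values were 5167 and 1927 CPM (control) against 9993 and 4264 (knockout). Obox7 had 792 and 363 CPM (control) against 1812 and 699 (knockout). In all 3, control library 2 was the lowest and knockout library 1 the highest, and the middle values, control library 1 and knockout library 2, lay close together with the control the higher. Obox2 had 5451 and 2029 CPM (control) against 8537 and 2861 (knockout), with knockout library 2 well below control library 1.

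In edgeR's quasi-likelihood test, 0 of the 4 tested members passed at an adjusted p below 0.05, where 0.989% of the 15572 tested genes did (0.597% higher and 0.392% lower). The log2 fold change was 1.16 ± 0.51 (SE) for Obox1, with a 95% confidence interval of 0.03 to 2.30 and an adjusted p of 0.447. Obox7 differed by 1.12 ± 0.49 (interval 0.04 to 2.20, edgeR adjusted p = 0.437). Obox5 differed by 1.01 ± 0.53 (interval -0.16 to 2.17, edgeR adjusted p = 0.563) and Obox2 by 0.61 ± 0.56 (interval -0.63 to 1.85, edgeR adjusted p = 0.846). The median of the 4 was 1.06, against -0.00 over all tested genes. Before adjustment, Obox1 and Obox7 were 2 of the 1687 genes below 0.05. DESeq2 also called 0 members, beside 290 of 25203 genes higher and 229 lower. Summed into 1 value, which does not depend on how reads were split between the copies, the family had 16180 and 6078 CPM (control) against 30343 and 12299 (knockout), a difference of 0.94 ± 0.54 (interval -0.27 to 2.15, edgeR adjusted p = 0.627).

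With no filter on low counts, Obox1 (1.17, edgeR adjusted p = 0.0176) and Obox7 (1.13, edgeR adjusted p = 0.0254) passed, with 2.09% of 25203 genes. Without knockout GV library 1 the difference of Obox2 was -0.38, that of Obox1 0.47 and that of the sum 0.16, and without control GV library 2 the sum differed by 0.40. It differed by 1.82 without control GV library 1 and by 1.46 without knockout GV library 2, where Obox1 differed by 2.06 and 1.64, and no member passed in any of these fits. TMM scaling factors were 1.22 in control GV library 2 and 0.779 in knockout GV library 1, against 1.03 and 1.08 in the other GV libraries. With library totals as the only scaling, the sum differed by 0.62, and the median of all genes moved to -0.27. The summed level of granulosa and cumulus markers, given above, was lower in both knockout GV libraries, though single markers such as Fshr were not. The part of these markers in the Obox values was not tested. In whole-oocyte RNA, a change in the number of transcripts cannot be told apart from a change in the rest of the RNA they are measured against.

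**Figure D3:**
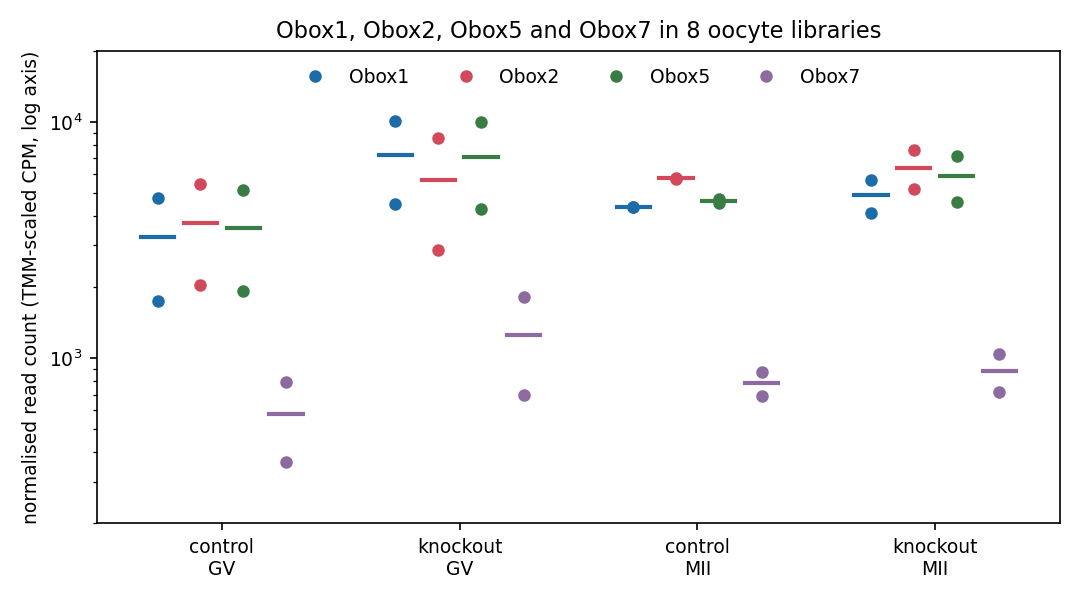
Normalised read count (TMM-scaled CPM, logarithmic axis) of 4 Obox members in each of 2 libraries per group (points) with the group mean (bars). The GV points of each member lie far apart and overlap between genotypes, and the control MII points of Obox1 and Obox2 nearly coincide.

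The spread between replicates was itself uneven. The higher of the GV libraries had 2.66 times the summed Obox level of the other in control and 2.47 times in knockout. At MII these ratios were 1.00 in control and 1.48 in knockout. Over 332 genes with a mean of at least 500 CPM, the median distance between the control GV libraries was 0.44 on the log2 scale. Obox1 (1.44), Obox2 (1.43), Obox5 (1.42) and Obox7 (1.13) were further apart than 91.0% to 97.0% of these genes. Between the knockout GV libraries the median distance was 0.55, and the members, at 1.16 to 1.58, exceeded 94.9% to 99.4% of the genes. In control MII the distance was 0.00 for Obox1 and 0.34 for Obox7, and in knockout MII it was 0.47 to 0.65. The members thus went up and down together between replicate GV libraries, library 1 being the higher in each genotype.

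At MII, knockout and control oocytes differed in their means by less than the spread of the knockout libraries. Control libraries had 4340 and 4341 CPM of Obox1, and knockout libraries 4105 and 5693. Obox2 had 5754 and 5802 CPM (control) against 5178 and 7637 (knockout). For both, the control pair fell between the knockout values. For Obox5 they were 4535 and 4697 CPM (control) against 4594 and 7187 (knockout), and for Obox7 876 and 693 against 718 and 1044. Of the 4, edgeR called 0, where 5.14% of genes passed (1.70% higher and 3.44% lower). Before adjustment 0 of the 4 were below 0.05, where 3450 of 15572 genes were. DESeq2 also called 0 of them, beside 693 of 25203 genes higher and 1230 lower. The log2 differences were 0.17 ± 0.51 for Obox1, 0.15 ± 0.56 for Obox2, 0.35 ± 0.52 for Obox5 and 0.17 ± 0.48 for Obox7, and the edgeR adjusted p-values ran from 0.762 to 0.935. The sum differed by 0.22 ± 0.54 (interval -0.98 to 1.42, edgeR adjusted p = 0.876). Without knockout MII library 2 the differences of Obox1, Obox2, Obox7 and the sum turned to -0.0062, -0.08, -0.05 and -0.01. In the sum, knockout MII library 1 had 14593 CPM, below both control libraries at 15499 and 15539 CPM, and library 2 had 21556 CPM, above both.

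Whether the knockout difference itself changed from GV to MII was tested as an interaction. The differences at MII minus those at GV were -0.99 ± 0.72 for Obox1, -0.46 ± 0.79 for Obox2, -0.66 ± 0.74 for Obox5, -0.95 ± 0.68 for Obox7 and -0.72 ± 0.76 for the sum. EdgeR called 0 of 4 members, with adjusted p-values from 0.648 to 0.907, where 0.0835% of genes passed (0.00642% higher and 0.0771% lower). Before adjustment 0 of the 4 were below 0.05, where 1787 of 15572 genes were. DESeq2 also called 0 of them, beside 119 of 25203 genes higher and 264 lower.

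During maturation from GV to MII, when much of the oocyte's stored RNA is degraded, no Obox member passed the test. CPM is a share of the RNA present at each stage, so this does not show whether the number of Obox transcripts per oocyte changed. In control oocytes 0 of 4 members passed, where 49.1% of genes did, 21.2% higher and 27.9% lower at MII. Before adjustment 0 members were below 0.05, where 8747 of 15572 genes were. DESeq2 also called 0 members, beside 3287 of 25203 genes higher and 4831 lower. The members' differences, MII against GV, were 0.42 for Obox1, 0.63 for Obox2, 0.38 for Obox5 and 0.44 for Obox7. Their edgeR adjusted p-values were 0.374 to 0.569, and their median was 0.43 against -0.20 for all genes. The summed level differed by 0.48 ± 0.54 (interval -0.72 to 1.68, edgeR adjusted p = 0.485). The control groups overlapped for Obox1, Obox5 and Obox7. Those of Obox2 did not, with 2029 and 5451 CPM at GV and 5754 and 5802 CPM at MII. The share of all genes whose control groups are apart in this way was not computed. The sum differed by -0.07 without control GV library 2 and by 1.34 without control GV library 1. In knockout oocytes 0 of 4 passed, where 49.0% of genes did, 19.9% higher and 29.1% lower. Before adjustment 0 members were below 0.05, where 8739 of 15572 genes were. DESeq2 also called 0 members, beside 3229 of 25203 genes higher and 4995 lower. In knockout oocytes the differences were -0.57 for Obox1, 0.17 for Obox2, -0.28 for Obox5 and -0.51 for Obox7, with edgeR adjusted p-values of 0.373 to 0.821. The sum differed by -0.24 ± 0.54 (interval -1.44 to 0.96, edgeR adjusted p = 0.739), and by 0.51 without knockout GV library 1. The contrasts share libraries, so the signs at GV, in maturation and in the interaction are not independent of each other.

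**Figure D4:**
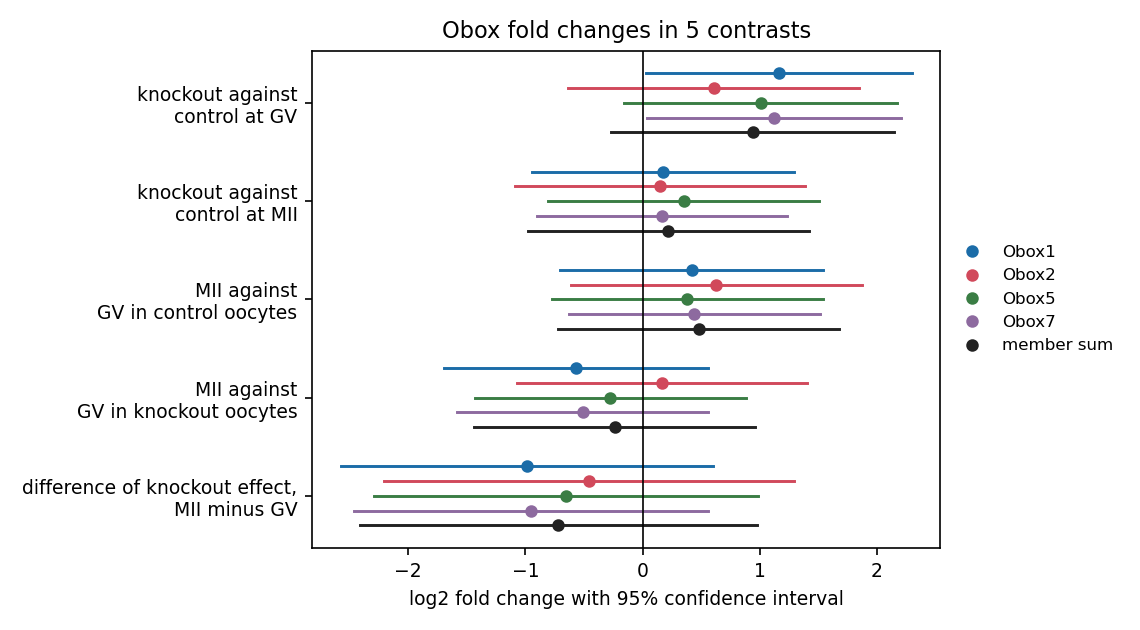
Log2 fold change (points) with its 95% confidence interval (lines) of 4 members and of the summed family in 5 contrasts, from edgeR's quasi-likelihood fit over 8 libraries. At GV the intervals of Obox1 and Obox7 lie just above 0, and every other interval spans 0.

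The balance between the members within a library was compared too, a comparison chosen after seeing the data. Obox2 had 1.15 and 1.16 reads per Obox1 read in the control GV libraries, although their levels differed by 2.66 times. In control MII the ratio was 1.33 and 1.34, and in knockout MII 1.26 and 1.34. In knockout GV it was 0.850 (counting interval 0.844 to 0.856) and 0.638 (0.632 to 0.644), below 1 in both libraries and lower than in the 6 others. As a share of the reads of the members, Obox2 took 33.7% and 33.4% at GV in control against 28.1% and 23.2% in knockout, and at MII 37.1% and 37.4% against 35.5% and 35.4%. Obox1 took 29.4% and 28.8% at GV in control against 33.1% and 36.4% in knockout. Obox5 ranged from 29.2% to 34.6% and Obox7 from 4.46% to 5.98%.

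On the log2 scale the Obox2 to Obox1 ratio differed by -0.65 between knockout and control GV and by -0.03 between knockout and control MII. From GV to MII it differed by 0.21 in control and 0.82 in knockout oocytes. With 2 libraries against 2, the exact two-sided permutation test cannot give a p below 0.333, and that is what it gave for the GV difference. Ratios were formed for 6 pairs of members, with the same smallest p for each. At GV, knockout minus control, the other 5 ratios differed by 0.48 (Obox5 per Obox2), 0.50 (Obox7 per Obox2), -0.17 (Obox5 per Obox1), -0.15 (Obox7 per Obox1) and 0.02 (Obox7 per Obox5). The libraries of the groups compared did not overlap in 4 of the 6 ratios for knockout against control at GV, in 2 at MII, in 3 for control maturation and in 5 for knockout maturation. Under random labels, 2 libraries against 2 are apart with a probability of 0.333, and the ratios reuse the same members. The share of ratios between other genes that are apart was not computed, so these counts are a description only. Counting intervals cover counting error only. Since Obox1 and Obox2 share most of their windows, whether the ratio reflects transcript levels or the placing of reads was not tested.

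**Figure D5:**
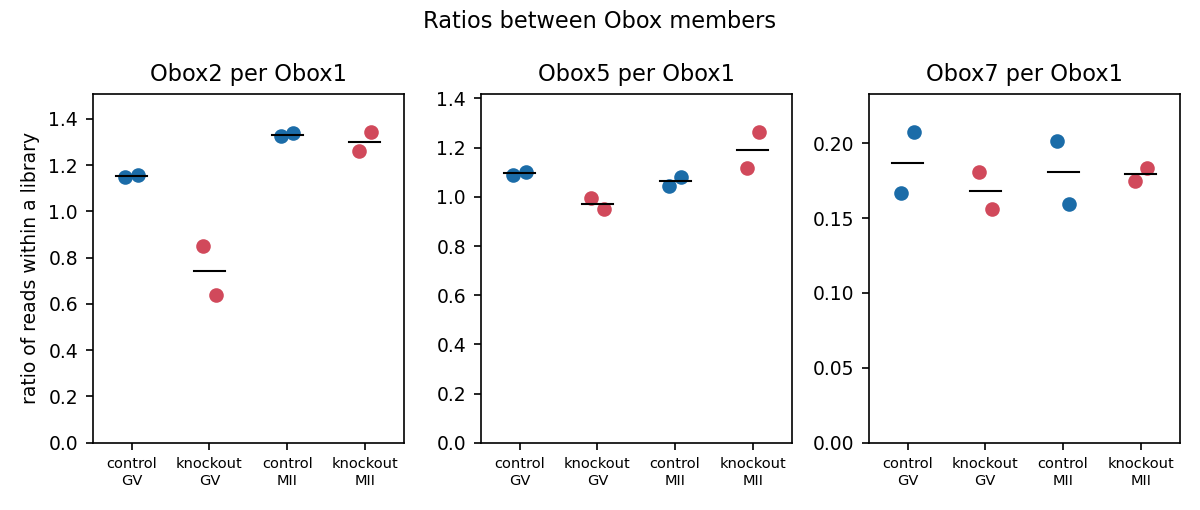
Reads of Obox2, Obox5 and Obox7 per Obox1 read within each library (points; blue control, red knockout) with the mean of the 2 libraries (black bars). The Obox2 ratio is 0.850 and 0.638 in knockout GV and between 1.15 and 1.34 in the other 6 libraries.

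The members' promoters were read for shared sequence, since their levels went together. RefSeq promoters on GRCm38.p6, from 250 bases before to 50 after the start, matched all 5 members. All motifs were searched on both strands, and no match in a member overlapped a match of another motif. The NOBOX element TAATTG, bound by the oocyte homeobox factor NOBOX, was found in no member and in 8.0% of 32851 promoters. The OTX-type site TAATCC was found in Obox3 alone, as was TATAAA, against 7.06% and 13.6% of all promoters. E-boxes, CANNTG, numbered 2 in Obox1, 4 in Obox2, 2 in Obox5, 2 in Obox7 and 0 in Obox3, and 72.3% of all promoters had at least 1. In the 4 abundant members a pair of E-boxes recurred, with the same surrounding bases except 1 beside the first E-box of Obox7. The sites of Obox1 and Obox7, in the sense of the gene with the E-box in capitals, show the pair, and those of Obox2 and Obox5 are spelt as in Obox1.
Obox1, first E-box: ttcagagcatCAAATGgtgggtgaga
Obox7, first E-box: ttcagagcatCAAATGttgggtgaga
Obox1, second E-box: ttgaatattgCAAGTGggtggagcca
Obox7, second E-box: ttgaatattgCAAGTGggtggagcca
The starts of these E-boxes were 35 bases apart in each of the 4 genes. The first began at position -108 from the annotated start in Obox1, -11 in Obox2, -120 in Obox5 and -94 in Obox7. CAAATG and CAAGTG at this spacing occurred in 6 of 32851 promoters, 2 of them of genes outside the family. The pair was noticed in the matches and then counted, so it is a description of shared sequence, not of binding. Over the whole window, with gaps counted as differences, the promoter of Obox1 was 88.8% identical to that of Obox5 and 86.3% to that of Obox7. That of Obox2 was 51.1% identical to Obox1, 44.99% to Obox5 and 52.5% to Obox7. Against Obox1, 203 positions were identical over 397 aligned columns. Each window holds 300 bases, so every column of this pair aligned without a gap was identical, and all differences counted were gaps. The windows are set by the annotated starts, and the E-box pair lies nearer the start in Obox2, so such an offset lowers its figures. They are not comparable with the coding identities, which leave gaps out.

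Outside the family, the genes whose levels followed the summed Obox level most closely over the 8 libraries were Tcl1b2 (Pearson r = 0.98 for log2 CPM), Srpk1 (0.97), Evl (0.96), Cks1b (0.95) and Btg4 (0.92). Tcl1b2 belongs to a gene family expressed in oocytes and early embryos, Srpk1 phosphorylates splicing factors, Cks1b binds cyclin-dependent kinases, Evl regulates actin and Btg4 is an adaptor for removal of maternal mRNA tails. They were the closest of 12977 protein-coding genes compared, and 4 tested genes reached 0.95. All points share the scaling of the libraries, and the GV libraries span the widest range of Obox levels, so r over 8 libraries is only a description. At GV, Tcl1b2 had 1821 and 1030 CPM (control) against 3007 and 1332 (knockout), and at MII 1825 and 1711 against 1633 and 2250, again lowest in control GV library 2 and highest in knockout GV library 1. None of these 5 genes passed in any of the 5 contrasts. Their edgeR adjusted p-values at GV ranged from 0.422 for Cks1b to 0.754 for Srpk1.

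Genes that may act with the Obox family or upstream of it were read from 5 lists. Of 12 oocyte transcription factors, 0 passed at GV and 1 fell at MII in knockout oocytes (medians 0.29 and 0.08, against -0.00 and -0.01 for all genes). The gene that fell was Figla, a regulator of zona pellucida genes, at 0.632 ± 0.520 CPM (34 reads) in control against 0.0636 ± 0.0365 CPM (4 reads) in knockout MII (-3.15 ± 0.79, edgeR adjusted p = 0.0482). That call held in 1 of 8 fits that each left out a library, the one without control MII library b, and the adjusted p reached 0.228 over the alternatives. Nobox, itself an oocyte homeobox gene, was at 949 ± 276 CPM (control) against 1090 ± 133 CPM (knockout) at GV (0.20 ± 0.31, edgeR adjusted p = 0.943; -0.07 with library totals as the only scaling). Foxo3, which restrains the activation of primordial follicles, was at 345 ± 19.1 and 473 ± 160 CPM there (0.45 ± 0.30, edgeR adjusted p = 0.693). In maturation 4 rose and 3 fell in control oocytes and 3 rose and 3 fell in knockout oocytes, where 49.1% and 49.0% of all genes passed. Nobox fell to 32.2 ± 7.08 CPM in control (-4.88 ± 0.37) and to 53.3 ± 9.64 CPM in knockout MII oocytes (-4.35 ± 0.36). Lhx8, a LIM homeobox gene of oocytes, changed by -2.51 ± 0.31 in control and -2.02 ± 0.30 in knockout maturation. Obox levels, as given above, did not pass in either.

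Of 9 other homeobox genes that could be tested, Nobox and Lhx8 among them again, 0 passed in knockout oocytes at either stage, with medians of 0.23 at GV and 0.73 at MII. Meis2, a partner of HOX proteins, was the most abundant besides Nobox, at 288 ± 66.0 and 556 ± 150 CPM at GV (0.95 ± 0.34, edgeR adjusted p = 0.296). In maturation 3 rose and 4 fell in control and 2 rose and 2 fell in knockout oocytes (49.1% and 49.0% of all genes passed), with Pbx3 up by 3.12 ± 0.89 and 3.09 ± 0.89. The Pbx3 call was lost in control without control GV library 1 or control MII library b, and in knockout without knockout GV library 1 or knockout MII library 1 (edgeR adjusted p up to 0.121 and 0.124). Of 9 genes known to depend on NOBOX, 1 rose at GV and 0 passed at MII in knockout oocytes, with medians of 0.50 and -0.01. That gene was Rfpl4, which encodes an oocyte RING finger protein, at 298 ± 100.2 CPM (control) against 1704 ± 862 CPM (knockout) (2.52 ± 0.41, edgeR adjusted p = 0.0174). Leaving out knockout GV library 1, or either of the control GV libraries, ended that call (edgeR adjusted p up to 0.167). It also rose in control maturation, to 1616 ± 78.9 CPM (2.44 ± 0.41). In maturation 1 of the 9 rose and 3 fell in control, and 0 rose and 5 fell in knockout oocytes (27.9% and 29.1% of all genes fell), among them Dnmt1, the maintenance DNA methyltransferase, by -3.23 ± 0.38 and -3.42 ± 0.38.

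Of 27 tested regulators of zygotic genome activation, the process in which OBOX proteins act, 0 passed in knockout oocytes at GV or MII, with medians of 0.46 and 0.06. Klf17, a Krüppel-like factor, was at 390 ± 88.2 and 601 ± 186 CPM at GV (0.62 ± 0.31, edgeR adjusted p = 0.537). In control maturation 8 rose and 5 fell, and in knockout maturation 7 rose and 7 fell, beside 49.1% and 49.0% of all genes that passed. Klf17 rose by 2.25 ± 0.33 and 1.68 ± 0.32, Tet3, which oxidises methylcytosine in the zygote, by 1.85 ± 0.28 and 1.42 ± 0.28, and Dppa2 changed by -5.11 ± 0.44 and -3.17 ± 0.40. Of 26 genes of the early embryo's first transcription that are in the table, 10 were high enough to be tested. None passed in knockout oocytes at either stage, with medians of 0.64 at GV and 0.00 at MII. Nelfa, a component of the transcription pausing complex, was at 126 ± 19.1 and 224 ± 97.1 CPM at GV (0.82 ± 0.33, edgeR adjusted p = 0.382). In maturation 2 rose and 5 fell in control and 0 rose and 5 fell in knockout oocytes, again where 27.9% and 29.1% of all genes fell, with Arg2 down by -7.03 ± 0.56 and -7.99 ± 0.58. In the interaction, 0 members of any of the 5 lists passed.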

How the data were processed

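RNA-seq counts per gene from 8 oocyte libraries were used. Per the submitters' processing notes, the authors aligned reads to mm10 with Bowtie2, counted them with HTSeq and used edgeR; the sources used here do not give versions, annotation, strand setting or the treatment of multiply aligned reads. The deposited values were raw counts. Per the file headers, 2 columns are both titled as control MII replicate 2; they were used as control MII libraries a and b with no replicate number. No value column was left unused (0). HTSeq's 5 summary entries, 22.0% to 35.1% of a library, stayed out of library sizes.

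Counts were fitted with edgeR 4.0.16 in R 4.3.3: filterByExpr by group (15572 genes), TMM, 1 term per group over all 8 libraries (4 residual degrees of freedom), and the two-sided quasi-likelihood F-test. Adjustment was by Benjamini-Hochberg over all tested genes of a contrast, and a gene passed below 0.05. The script was tested on simulated data. Standard errors are the log2 fold change over the square root of F. For the family sum, the member entries were replaced by their total. Marker sums are CPM of all gene reads, unscaled.

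Lengths, positions and sequences came from GENCODE M21 transcripts and RefSeq promoters; genome-wide copies and proteins were not analysed here, so windows were compared between gene models and identity was computed on coding bases with Biopython 1.88. Members and lists were chosen with earlier results of these data known. Named were all 5 members, other Obox loci with at least 10 reads, the 5 protein-coding genes closest to the family sum, and, from each list and contrast, up to 4 passing genes by smallest p, of which a part is printed, or, where none passed, the 2 most abundant; Obox6, Arid1a and markers were named besides. Alternatives were other scalings, low-count filters, DESeq2 1.42.0, only the groups compared, each library left out and a replicate block.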

Additional observations from a re-analysis of the deposited data

How the results depend on the processing

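Of 360 alternative values of the members and their sum, 337 kept direction and side of the threshold, 4 passed the threshold and 19 reversed. Of 71 alternative counts of members called, 69 were 0. With no filter on low counts and with a replicate block, 2 members passed at GV: Obox1 (1.17, edgeR adjusted p = 0.0176, and 1.21, 0.0287) and Obox7 (1.13, edgeR adjusted p = 0.0254, and 1.06, 0.0232). The block rests on replicate numbers that the data do not tie to a shared source: same-numbered libraries deviated together by a correlation of 0.119 between control and knockout GV and -0.02 between knockout GV and MII. The block was fitted to the GV libraries alone, and there it gave 1522 GV calls over all genes (785 higher and 737 lower). Without the block, a fit to the same libraries gave 345 higher and 357 lower, and the main fit over 8 libraries gave 154 calls. No paired analysis was possible because the control MII columns carry no distinct numbers, for contrasts with that group. The cause of these moves was not tested.

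The 19 reversals of the members and their sum all came from leaving out 1 library, and the ranges here are over all leave-outs. At GV, Obox2 ranged from -0.38 without knockout GV library 1 to 1.49, and the sum from 0.16 to 1.82. At MII the lowest values, all without knockout MII library 2, were below 0: the sum ranged from -0.012 to 0.49, Obox1 from -0.0062 to 0.40, Obox2 from -0.084 to 0.41 and Obox7 from -0.051 to 0.43. In control maturation, without control GV library 2, the lowest were below 0 too: the sum ranged from -0.073 to 1.34, Obox1 from -0.14 to 1.30, Obox5 from -0.18 to 1.25 and Obox7 from -0.029 to 1.10. In knockout maturation, the highest values came without knockout GV library 1: the sum ranged from -0.77 to 0.51, Obox1 from -1.05 to 0.078, Obox5 from -0.78 to 0.42 and Obox7 from -1.06 to 0.29. Obox2 ranged from -0.43 without knockout GV library 2 to 1.11, and was -0.13 without knockout MII library 2. In the interaction, the highest values again came without knockout GV library 1: the sum ranged from -1.60 to 0.10, Obox2 from -1.34 to 0.56 and Obox5 from -1.54 to 0.11; Obox2 was 0.09 without control GV library 2.

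Calls over all genes, the background of the member counts, moved by over 1.5 times at GV (154) to 527 without the filter, 519 with DESeq2, 702 with only the groups compared, and 29, 35, 57 and 87 without control GV library 1 or 2 or knockout GV library 1 or 2. At MII (800) they moved to 1829, 1923 and 392 in the first 3 of these and to 440 to 521 without a GV library or knockout MII library 2. In the interaction (13) they ran from 0 to 498, and in control maturation (7649) they were 5075 without control GV library 1. Of the list genes, Nobox at GV turned to -0.0697 with library totals only and reached 0.54 among the alternatives. Length scaling over unique windows moved the level of Obox1 and Obox2 in all 4 groups by more than the SD. In control MII it also moved Obox5 (2161 to 2608) and Obox7 (490 to 609). The unit differs from CPM per kilobase, and each member has fewer unique windows than exon bases, so levels could only rise.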
